A study of Mus musculus with 6 samples.

Results

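The genes described here encode the moving parts of motile cilia and the factors that put those parts together. They are a list of 43 genes chosen by name, with earlier results of these data already known. Of these, 41 were measured among 18193 genes on the arrays. Dnah10 and Dnaaf3 had no probe set named after them in the annotation used. The 41 genes had 64 probe sets annotated with a single symbol, and each gene was read from the one with the highest mean over 6 arrays. Dnai1 and Dnai2 carry their older names Dnaic1 and Dnaic2 in that annotation. Spag6 was read from the probe set annotated as Spag6l, a copy that formerly bore the symbol Spag6, since the probe set of the present Spag6 was dim.

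The tissue was the whole oviduct of mice of the outbred MF1 stock, in 3 samples with the genotype Wt1 ko/+ (heterozygous) and 3 samples with the genotype Wt1 +/+ (wild type). Each female had been mated to a wild-type male, all oviducts were collected at embryonic day 2.5, and each sample was read on 1 array of the 3' expression type. The labels do not say how the ko allele was made, how old the females were, or whether a sample was 1 animal or a pool, so p-values reflect sample-to-sample spread alone, part of which may be technical. In whole tissue, fewer cells of a type and less RNA per cell cannot be told apart.

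Multiciliated cells line the oviduct together with secretory cells, and their beating cilia help to move eggs, embryos and fluid. The shaft of a motile cilium, the axoneme, is a ring of doublet microtubules around a central pair. Outer and inner dynein arms on the doublets make the force, radial spokes and the central apparatus regulate the stroke, and tektins and other proteins stabilise the doublets. Dynein arms are preassembled in the cytoplasm by assembly factors and carried into the cilium by intraflagellar transport, and the transcription factors FOXJ1 and RFX2 and RFX3 switch on many of the genes.

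Levels are log2 intensities after quantile normalization, and a change is the heterozygous mean minus the wild-type mean on that scale. Wt1, which encodes a zinc finger transcription factor, had levels of 11.12, 11.27 and 11.79 in heterozygous oviducts, against 12.17, 12.06 and 11.67 in wild-type oviducts. The genotypes overlapped in the targeted gene (change -0.57, SE 0.23, limma unadjusted p = 0.0493, adjusted p = 0.771). This overlap came from wild type 3 alone, which lay below heterozygous 3. The ratio of 3' to 5' signal of the Actb control, which grows as RNA breaks down, was 2.49, 1.67 and 1.71 in heterozygous oviducts 1, 2 and 3, against 1.74, 2.40 and 5.90 in wild-type oviducts 1, 2 and 3. Wild type 3 thus stood apart, and changes that it decides are given with and without it. Counts of genes whose genotypes did not overlap are given on all 6 arrays only. Median intensities lay between 151.6 and 167.8 on all arrays.

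Most motile cilia genes were bright in the probe set chosen. A mean level above the median over all probe sets, 7.28, was found in 40 of the 41, the exception being Spag17. Among all genes, read in the same way, it was found in 11776 of 18193. Most were slightly lower in heterozygous oviducts, and none passed the test. A negative change was seen in 37 of 41 genes (38 with the deposited scaling) and a positive one in 4, namely Ccdc40, Tubb4b, Rsph3a and Dnah5. The median change was -0.13, beside -0.03 over all genes, of which 55.0% were lower. Among the 11776 genes above the median of probe sets, 55.4% were lower and the median change was -0.02.

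At an adjusted p under 0.05 in limma, 0 of 41 genes were called, beside 3 of 18193 genes overall (0.0165%). At an unadjusted p under 0.05 the count was also 0 of 41, whereas 3.77% of all genes were lower and 2.67% higher at that level. Adjusted p-values of the 41 genes ranged from 0.779 to 0.996. The genotypes did not overlap in 8 of 41 genes (19.5%), beside 11.8% of all genes in either direction. In all 8 every heterozygous array lay below every wild-type array, as it did in 6.77% of all genes. These 8 were Hydin, Ak7, Tekt2, Cfap52, Cfap53, Dnaaf1, Tppp3 and Ift88. In Spag1, Cfap206 and Spag17 the genotypes overlapped through wild type 3 alone. Their changes were -0.23, -0.13 and -0.01 on all 6 arrays, and -0.28, -0.17 and -0.35 without that array. For any gene without overlap the exact two-sided permutation p is 0.1, the smallest that 20 assignments of 3 against 3 arrays allow. That value for the 8 genes therefore adds nothing to their lack of overlap.

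**Figure D1:**
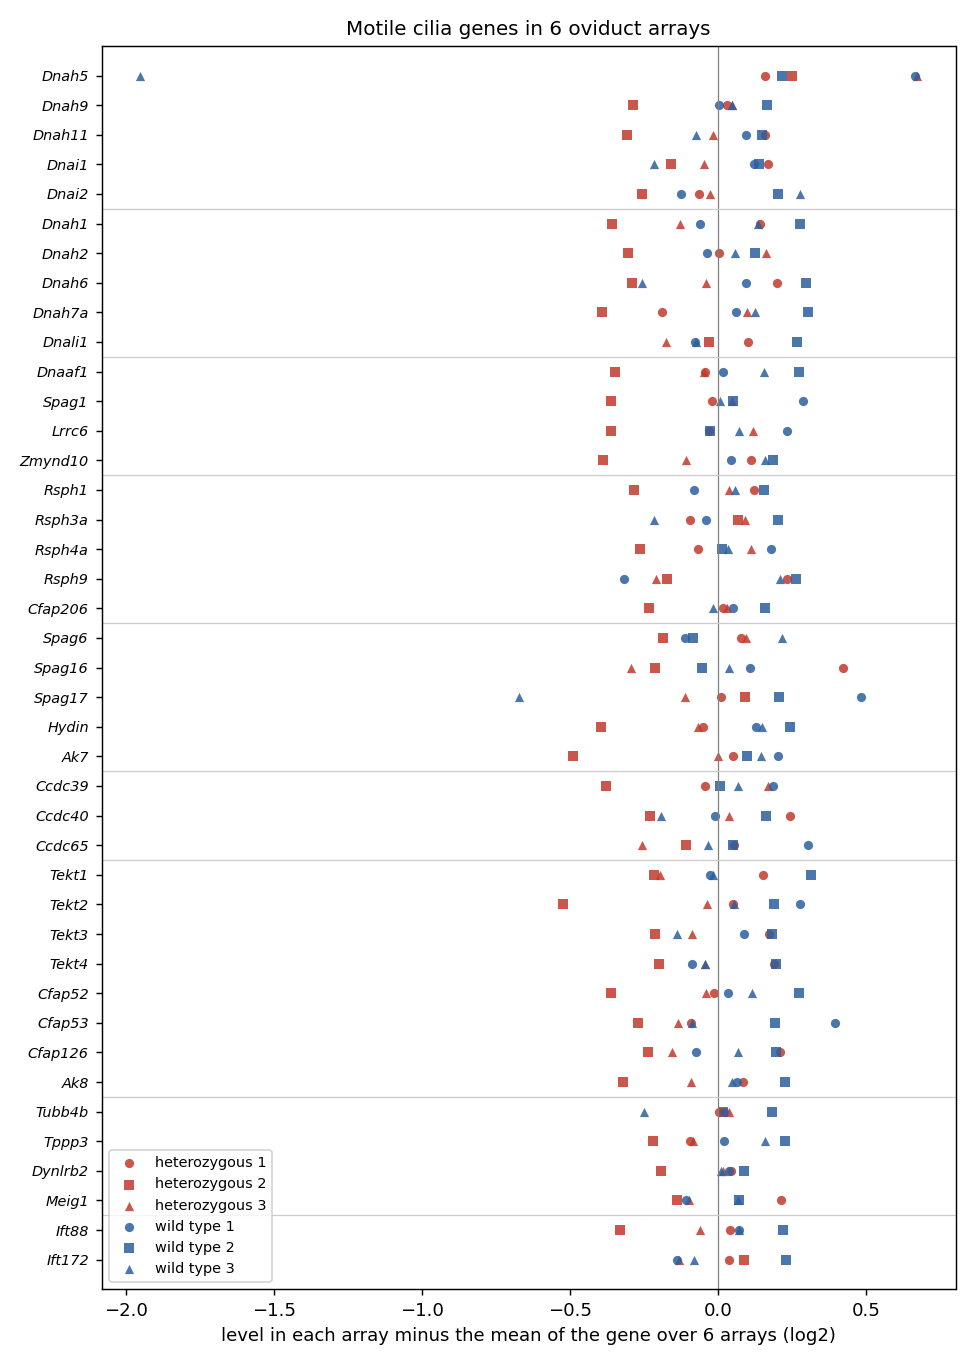
Level of each of the 41 motile cilia genes in each of 6 arrays, as its distance from the gene's mean over the arrays (horizontal axis, log2 units), with red symbols for heterozygous and blue for wild-type oviducts and lines between the roles. The red squares of heterozygous 2 lie at the left for 31 of 41 genes, and the blue triangle of wild type 3 lies far to the left for Dnah5.

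The differences were unevenly shared between arrays. Heterozygous 2 had the lowest level for 31 of 41 genes (75.6%), beside 18.6% of all genes. Wild type 2 had the highest level for 22 of 41 genes (53.7%), beside 15.8% of all genes. The median distance of the 41 genes from their own means was 0.05, -0.26 and -0.04 in heterozygous oviducts 1, 2 and 3, against 0.04, 0.19 and 0.05 in wild-type oviducts 1, 2 and 3. Heterozygous 1 therefore stood as high as wild types 1 and 3, and the genotypes overlapped. Without heterozygous 2, 28 of 41 genes were lower and the median change was -0.05, with 51.8% of all genes lower and a median of -0.01 over all genes. Without wild type 2 the counts were 29 of 41 and the median -0.08. Without heterozygous 1 the median was -0.21, with 38 of 41 genes lower.

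Leaving out wild type 3, the array with the highest 3' to 5' ratio, gave 39 of 41 lower genes and a median of -0.18, with 51.3% of all genes lower. All 4 positive changes were negative without it, at -0.06 for Ccdc40, -0.08 for Tubb4b, -0.06 for Rsph3a and -0.08 for Dnah5, while Spag6 and Meig1 were positive, at 0.09 and 0.01. In that fit 1 gene, Cfap53, was at an unadjusted p under 0.05 (0.0237 in limma, with an adjusted p of 0.824), a level at which 2.60% of all genes were lower. The arrays were also compared within 2 classes of the Actb ratio, each with 2 arrays of a genotype against 1 of the other. The class of lower ratio held heterozygous 2. That of higher ratio held wild type 3, whose ratio of 5.90 lay far above those of the other arrays in its class. Among arrays of lower ratio, the mean of heterozygous 2 and 3 lay below wild type 1 for 36 of 41 genes, with a median difference of -0.21 and with 49.2% of all genes lower. Among arrays of higher ratio, heterozygous 1 lay below the mean of wild types 2 and 3 for 24 of 41 genes, with a median difference of -0.05 and with 52.3% of all genes lower.

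**Figure D2:**
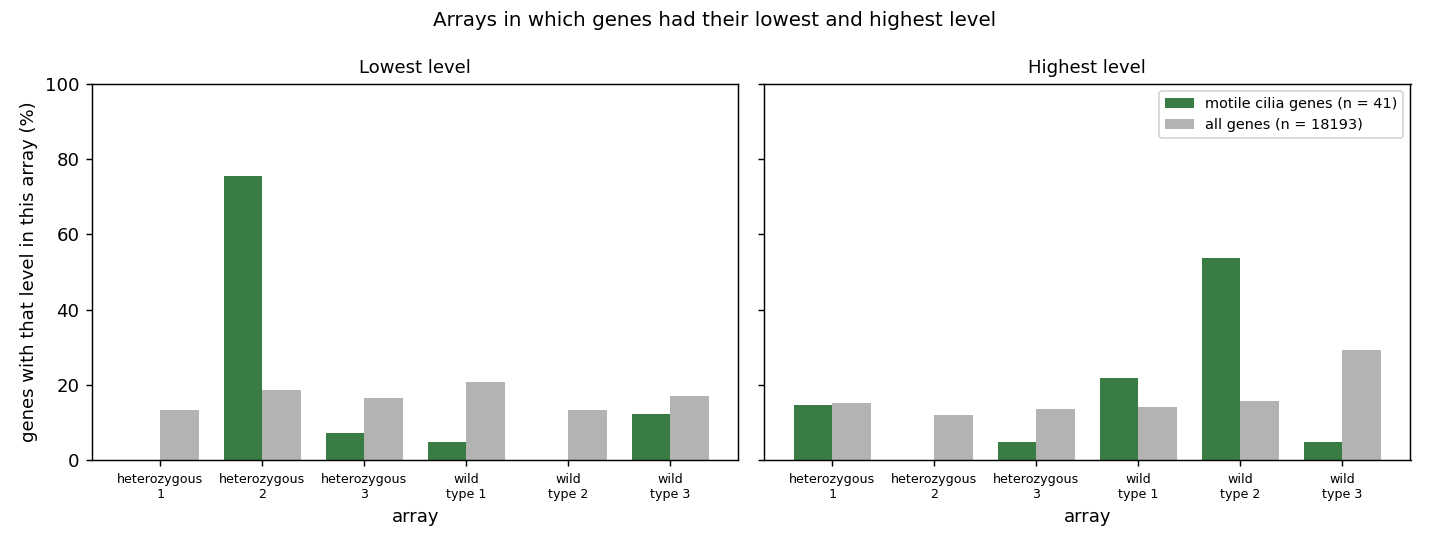
Percent of genes whose lowest level (left) or highest level (right) fell in each of 6 arrays, for the 41 motile cilia genes (green) and all 18193 genes (grey). Heterozygous 2 held the lowest level of 75.6% of the motile cilia genes and wild type 2 the highest level of 53.7%.

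In the outer dynein arm, the motor that sets beat power, 4 of 5 genes were lower, with changes between -0.23 and 0.72. Without heterozygous 2 the count was 2 of 5, and without wild type 3 it was 5 of 5. Dnah5, an outer arm heavy chain, had levels of 8.89, 8.98 and 9.40 in heterozygous oviducts, against 9.40, 8.95 and 6.78 in wild-type oviducts. Its positive change of 0.72 (SE 0.68, limma adjusted p = 0.910) rested on the single low level in wild type 3 and was -0.08 without that array. The other heavy chain genes, Dnah9 and Dnah11, stood at -0.14 (SE 0.14) and -0.11 (SE 0.16). The intermediate chain genes Dnai1 and Dnai2 stood at -0.03 (SE 0.16) and -0.23 (SE 0.16), and Dnai1 at -0.14 without wild type 3.

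All 5 measured inner arm genes were lower, with changes between -0.32 and -0.07, but 3 of 5 were lower without heterozygous 2, where Dnah2 and Dnah6 stood at 0.03 each. Dnah7a, an inner arm heavy chain, had levels of 7.78, 7.57 and 8.06 in heterozygous oviducts, against 8.03, 8.27 and 8.09 in wild-type oviducts. Heterozygous 3 lay above wild type 1, so the genotypes overlapped (change -0.32, SE 0.17, limma adjusted p = 0.837). Its close relatives Dnah7b and Dnah7c, which are not on the list, share a probe set that was lower in each heterozygous array. That probe set had levels of 11.27, 11.02 and 11.34 in heterozygous oviducts, against 11.67, 11.62 and 11.70 in wild-type oviducts (change -0.45, SE 0.15, unadjusted p = 0.0245, limma adjusted p = 0.910 over 45037 probe sets). Which of the 3 genes these near-identical sequences report is uncertain.

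The 4 measured dynein assembly factors, Dnaaf1, Spag1, Lrrc6 and Zmynd10, had changes in a narrow range, between -0.29 and -0.18, with a median of -0.24. Dnaaf1, needed to preassemble both kinds of arm, had levels of 10.22, 9.92 and 10.22 in heterozygous oviducts, against 10.28, 10.54 and 10.42 in wild-type oviducts. The genotypes did not overlap, though heterozygous 1 lay close to wild type 1 (SE 0.15, limma adjusted p = 0.823). Without heterozygous 2 the median of the 4 genes was -0.12.

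Of the radial spoke genes 4 of 5 were lower, or 5 of 5 both with the deposited scaling and without wild type 3, with changes between -0.15 and 0.04. Without heterozygous 2 the count was 3 of 5. Rsph3a, a radial spoke protein, had levels of 12.91, 13.07 and 13.10 in heterozygous oviducts, against 12.96, 13.21 and 12.79 in wild-type oviducts. The arrays were interleaved (change 0.04, SE 0.15), and the change was -0.01 with the deposited scaling. A probe set shared by Rsph3a and Rsph3b stood at -0.09 (SE 0.15), so the 2 near-identical genes cannot be read apart with certainty.

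All 5 central apparatus genes had negative changes, between -0.34 and -0.01, or 4 of 5 with the deposited scaling. Without heterozygous 2 the count was 3 of 5, with Spag6 at 0.08 and Spag16 at 0.03, and without wild type 3 it was 4 of 5. Hydin, a very large protein of the central pair, had levels of 10.81, 10.46 and 10.79 in heterozygous oviducts, against 10.99, 11.10 and 11.01 in wild-type oviducts. Heterozygous 1 and wild type 1 were the nearest arrays of the genotypes, and Hydin had the smallest p of the 41 genes (change -0.34, SE 0.14, unadjusted p = 0.0513, limma adjusted p = 0.779). Ak7, an adenylate kinase, had levels of 12.32, 11.78 and 12.27 in heterozygous oviducts, against 12.47, 12.37 and 12.41 in wild-type oviducts. Its change of -0.29 (SE 0.18) was -0.12 without heterozygous 2, where the level was lowest. Spag17, the dimmest of the 41 genes, had levels of 6.40, 6.48 and 6.28 in heterozygous oviducts, against 6.87, 6.60 and 5.72 in wild-type oviducts. Wild type 3 was the lowest array, and the change of -0.01 (SE 0.31) was -0.35 without it and 0.02 with the deposited scaling.

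Ccdc39 and Ccdc40, a pair of proteins that form the ruler setting the repeat length of the axoneme, stood at -0.17 (SE 0.17) and 0.03 (SE 0.17), or -0.06 for Ccdc40 without wild type 3. Ccdc65, a part of the nexin link between doublets, stood at -0.21 (SE 0.15).

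The 8 genes of tektins and other doublet proteins were all lower, with changes between -0.34 and -0.04, though Tekt4 stood at 0.05 without heterozygous 2. In 3 of 8 (37.5%) the genotypes did not overlap, beside 6.77% of all genes. Tekt2, a tektin filament protein, had levels of 8.50, 7.92 and 8.41 in heterozygous oviducts, against 8.72, 8.64 and 8.50 in wild-type oviducts. Heterozygous 1 and wild type 3 were level to 2 decimals, and the change was -0.34 (SE 0.19). Cfap53, which lies inside the doublet, had levels of 8.64, 8.46 and 8.60 in heterozygous oviducts, against 9.13, 8.93 and 8.65 in wild-type oviducts. Here too wild type 3 lay next to the highest heterozygous array, and the change was -0.33 (SE 0.16), or -0.46 without wild type 3. Cfap52, also inside the doublet, had levels of 10.40, 10.05 and 10.37 in heterozygous oviducts, against 10.45, 10.69 and 10.53 in wild-type oviducts. Its change of -0.28 (SE 0.15) was -0.17 without heterozygous 2.

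Among the tubulin and other genes, Tppp3, a protein that binds and bundles microtubules, had levels of 12.15, 12.02 and 12.16 in heterozygous oviducts, against 12.26, 12.47 and 12.40 in wild-type oviducts. All heterozygous arrays were lower (change -0.27, SE 0.12, unadjusted p = 0.0671, limma adjusted p = 0.809). Tubb4b, a beta tubulin of cilia and of other microtubules and the brightest of the 41 genes, had levels of 13.38, 13.40 and 13.42 in heterozygous oviducts, against 13.40, 13.56 and 13.13 in wild-type oviducts. The heterozygous arrays lay within the wild-type range (change 0.03, 95% interval -0.32 to 0.39), and the change was -0.02 with the deposited scaling and -0.08 without wild type 3. Dynlrb2, a dynein light chain gene, stood at -0.09 (SE 0.12), and Meig1 at -0.02 (SE 0.15).

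Of the 2 intraflagellar transport genes, Ift88 had levels of 11.06, 10.69 and 10.96 in heterozygous oviducts, against 11.09, 11.24 and 11.09 in wild-type oviducts. Its arrays did not overlap by a narrow margin (change -0.24, SE 0.14, limma adjusted p = 0.862). Ift172 stood at -0.01 (SE 0.15). Both are part of the complex that carries cargo towards the ciliary tip, and primary cilia use them as well.

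**Figure D3:**
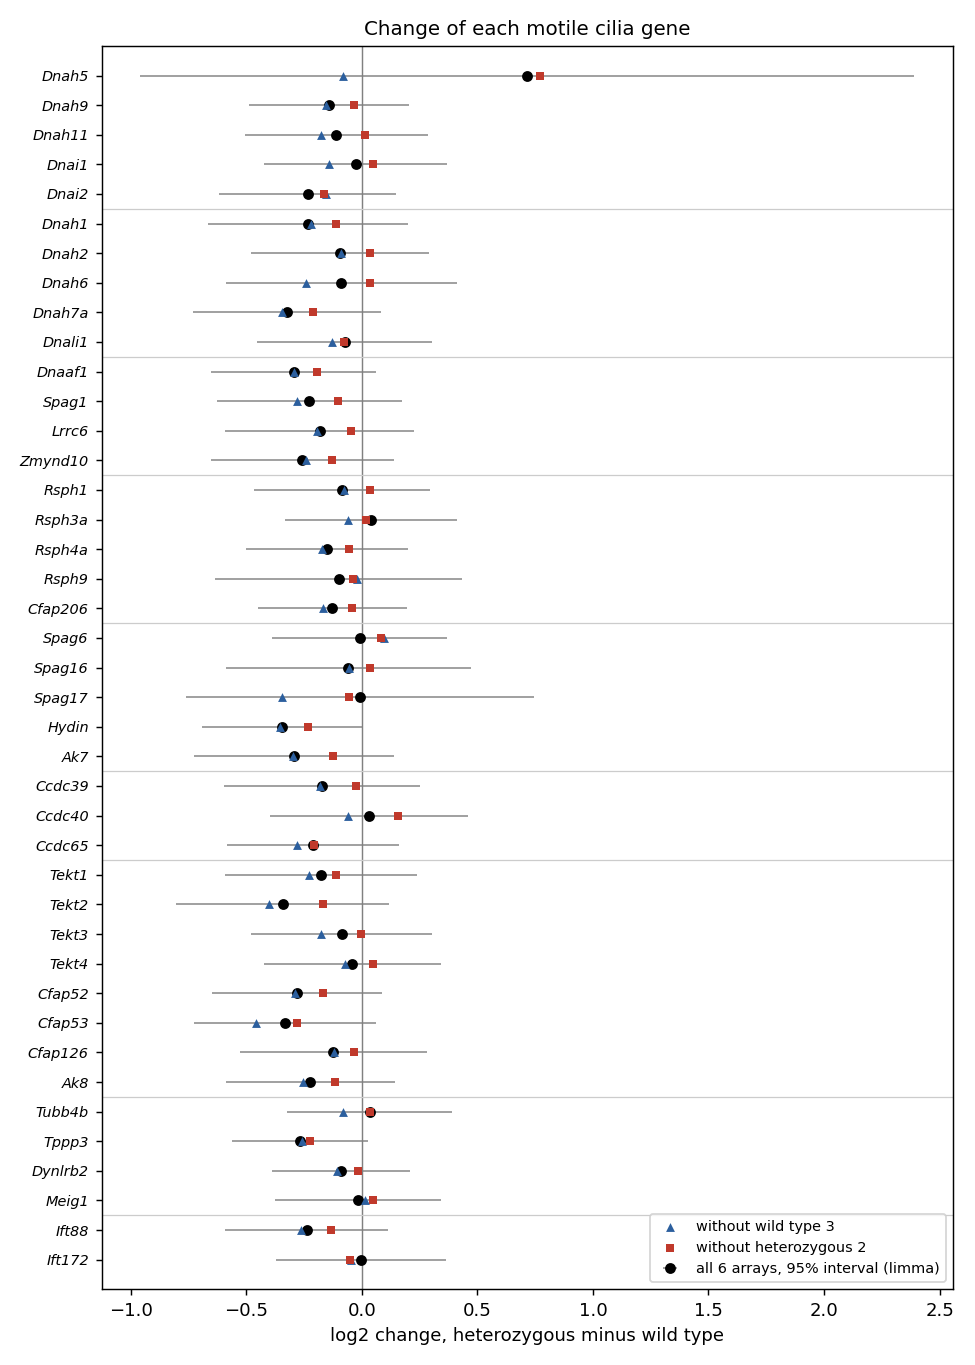
Log2 change of each of the 41 motile cilia genes, heterozygous minus wild type, with its 95% interval from limma (black), without wild type 3 (blue triangles) and without heterozygous 2 (red squares). Every interval spans 0, and most red squares lie to the right of the black points.

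For 16 genes other probe sets were also annotated, 23 in all. Of these, 11 were lower and 12 higher, with a median change of 0.04, and 0 were called, beside 0.00666% of all probe sets. Only 8 of the 23 lay above the median of all probe sets, and 5 of those 8 were lower. Those of Dnai1 and Lrrc6 stood at -0.29 and -0.34. That of Cfap52 stood at 0.66, opposite to its brighter probe set, and at -0.16 without wild type 3.

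A wider list of 85 other axoneme and assembly genes had 71 measured members, of which 60 were lower, with a median change of -0.17. No member was called. At an unadjusted p under 0.05, 2 of 71 were lower (2.82%), beside 3.77% of all genes, and 7 of 71 were lower without overlap (9.86%), beside 6.77%, so both shares lay near those of all genes. These 2 were Stk36, a kinase needed for the central apparatus (change -0.36, SE 0.13), and Cfap61, a protein of the spoke base (change -0.63, SE 0.23), both at a limma adjusted p of 0.738. Without heterozygous 2, 43 of the 71 were lower and the median was -0.07. Of 23 other intraflagellar transport genes 16 were lower, with a median of -0.05, but without heterozygous 2 the count was 12 of 23 and the median -0.003. Ift27 stood at -0.30 (SE 0.14) and Ttc21b at -0.15 (SE 0.11), and 0 of 23 were called.

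Regulators of multiciliogenesis, the programme that makes a cell grow many cilia, had 14 measured members of 16. Of these, 12 were lower, with a median of -0.16 and with 0 called. The changes of the 2 higher members reached 0.80. In 4 of 14 (28.6%) the genotypes did not overlap and heterozygous oviducts were lower, beside 6.77% of all genes. Deup1, which builds the structure on which extra centrioles form, had levels of 8.60, 8.81 and 9.06 in heterozygous oviducts, against 10.03, 9.57 and 9.65 in wild-type oviducts. The genotypes were well apart (change -0.93, SE 0.19, unadjusted p = 0.00272, limma adjusted p = 0.503). Ccno, a cyclin-like protein needed for centriole amplification, had levels of 6.82, 7.30 and 7.63 in heterozygous oviducts, against 7.84, 8.19 and 8.34 in wild-type oviducts (change -0.87, SE 0.25, limma adjusted p = 0.610). Foxj1 had levels of 11.65, 11.76 and 11.86 in heterozygous oviducts, against 12.20, 11.97 and 12.03 in wild-type oviducts. Foxj1 did not overlap either (change -0.31, SE 0.13, limma adjusted p = 0.782). In these 3 genes heterozygous 1, not heterozygous 2, was the lowest array, and the change of Foxj1 was -0.31 without heterozygous 2 as well. Over all 14 genes, however, heterozygous 2 was the lowest array. Their median distance from their own means was -0.01, -0.20 and -0.04 in heterozygous oviducts 1, 2 and 3. The median of the 14 genes was -0.21 without heterozygous 2.

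Markers of other cells in the oviduct also differed between arrays. All 10 smooth muscle markers were higher in heterozygous oviducts, with a median change of 0.56, or 0.35 without heterozygous 2 and 0.36 without wild type 1. Their summed intensity was 48453 to 63472 in heterozygous oviducts, against 42113 to 45113 in wild-type oviducts. Heterozygous 2, the array with the lowest motile cilia levels, had the highest smooth muscle, stroma and endothelium levels. All 8 endothelium markers were higher, with a median of 0.37, or 0.23 without wild type 2, and sums of 3526 to 4224 in heterozygous oviducts, against 2703 to 3204 in wild-type oviducts. Of 9 stroma markers 7 were higher, with a median of 0.13, or 0.06 without heterozygous 2, and sums of 53609 to 61643 in heterozygous oviducts, against 50086 to 55236 in wild-type oviducts. Of 6 listed adipocyte markers 4 were measured and 3 were higher, with a median of 1.78 and sums of 628 to 1278 in heterozygous oviducts, against 230.3 to 298.2 in wild-type oviducts. The genes of smallest p in these lists were Actg2 for smooth muscle at 0.84 (SE 0.24), Pecam1 for endothelium at 0.83 (SE 0.26), Tcf21 for stroma at 0.68 (SE 0.12) and Car3 for adipocytes at 2.22 (SE 0.41), none of them called.

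Of 10 epithelium markers 5 were lower and 5 higher, with a median of -0.01 and sums of 52695 to 56988 in heterozygous oviducts, against 50518 to 57893 in wild-type oviducts. The highest change of the 10 was 0.07. In 1 of 10 (10%), Cldn4, a tight junction protein, the genotypes did not overlap and heterozygous oviducts were lower, beside 6.77% of all genes. On all 6 arrays Cldn4 had a larger difference than any of the 41 motile cilia genes except Dnah5 (change -0.64, SE 0.24, limma adjusted p = 0.745). Without wild type 3 it stood at -0.39, a smaller difference than that of Cfap53, -0.46. Of 8 secretory cell markers 3 were lower, with a median of 0.03, or -0.18 without wild type 1, and sums of 33589 to 34564 in heterozygous oviducts, against 32557 to 35548 in wild-type oviducts. Ovgp1, the oviductal glycoprotein that marks secretory cells, averaged 14.33 ± 0.02 in heterozygous oviducts and 14.27 ± 0.01 in wild-type oviducts (SD, n = 3 each), as a check of the labelled tissue. Its levels were equal in heterozygous 1 and 2 and in wild types 1 and 3. Quantile normalization gives equal ranks the same value, so these SDs may not show the spread of the tissue. Without overlap, Ovgp1 was higher (change 0.06, SE 0.10) and 1 other of the 8 secretory markers was lower (12.5%), beside 6.77% of all genes lower. In either direction the genotypes did not overlap in 11.8% of all genes. With 8 markers, these counts describe single genes and not the list. Of 4 mesothelium markers 1 was lower, with a median of 0.14, or -0.07 without wild type 1. Of 6 measured leukocyte markers 3 were lower, with a median of 0.05, or -0.07 without wild type 1. In each marker list 0 genes were called and no marker was at the floor in all arrays. The part of these markers, of RNA quality or of single arrays in the differences of the motile cilia genes was not tested.

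**Figure D4:**
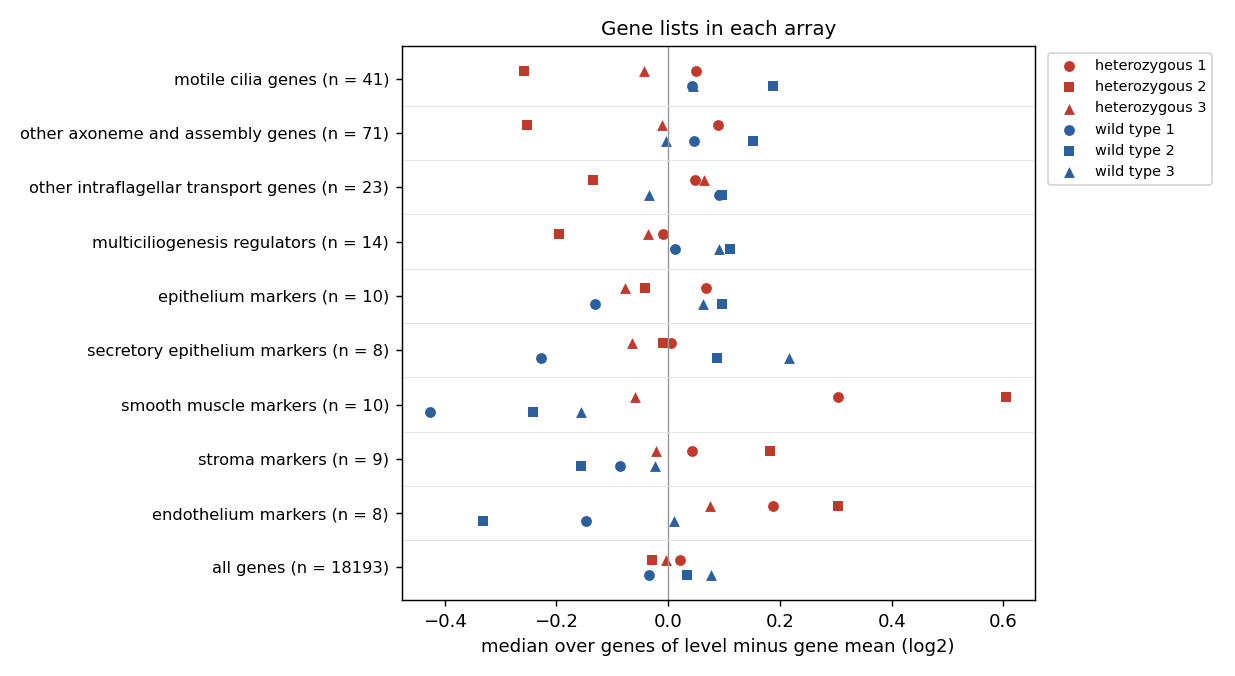
Median over the genes of each list of the level minus the gene's mean over 6 arrays (horizontal axis, log2 units), with red symbols for heterozygous and blue for wild-type oviducts. Heterozygous 2 (red squares) is lowest for the motile cilia genes, at -0.26, and highest for smooth muscle, at 0.60.

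The promoters of these genes were searched for the X-box, the motif bound by RFX factors, since many ciliary genes are known targets of those factors. The RefSeq promoter table (GRCm38.p6, 250 bases before to 50 bases after the start) held 36 of the 43 genes. The X-box was spelled as GTNNCC, then any 3 bases, then GNAAC, on either strand, and 10 spellings of X-box and forkhead motifs, some overlapping, were searched in all. This one was found in 6 of 36 promoters (16.7%), beside 2.49% of 27025 promoters. The 6 genes were Cfap206, Hydin, Spag16, Spag6l, Tekt4 and Zmynd10. The shorter spelling GTTGCC was found in 13 of 36 (36.1%), beside 14.1% of all promoters, and the looser GTNGCC and GGNAAC in 69.4% and 80.6%, beside 45.9% and 48.8%. Stricter X-box spellings were rarer: GTTNCC, any 3 bases and GNAAC in 3 of 36 (8.33%, beside 0.936%), GTTGCC with ATAG after it in 1 of 36 (2.78%, beside 0.226%), GTTGCC with ATGG after it in 0 of 36 (beside 0.633%), and GTTNCC with ATG and then GNAAC after it in 0 of 36 (beside 0.152%). The forkhead spelling TGTTTAC was found in 2 of 36 (5.56%), beside 4.05%, and TGTTTGT in 1 of 36 (2.78%), beside 7.60%. A match describes letters and is no measured binding site. The matches that lie before the start are shown 5′ to 3′ on the gene's strand, with the 14 matching bases in capitals.
Hydin: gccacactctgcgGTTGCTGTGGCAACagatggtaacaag
Cfap206: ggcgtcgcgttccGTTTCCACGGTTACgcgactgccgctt
Spag16: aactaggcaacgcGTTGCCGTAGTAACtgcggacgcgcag
Tekt4: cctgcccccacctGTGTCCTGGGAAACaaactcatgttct
The Hydin window is chr8:110266943-110266982 on the plus strand, with its match 21 to 8 bases before the start and read on the opposite strand. The Cfap206 window is chr4:34730203-34730242 on the minus strand, with its match 23 to 10 bases before the start, also on the opposite strand. The Spag16 window is chr1:69826854-69826893 on the plus strand, 103 to 90 bases before the start, and the Tekt4 window is chr17:25471417-25471456 on the plus strand, 160 to 147 bases before the start, both on the gene's own strand. Of these 4 genes Hydin had the lowest change, -0.34, while Cfap206, Spag16 and Tekt4 stood at -0.13, -0.06 and -0.04.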

How the data were processed

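For each array the authors deposited a linear intensity for each of 45101 probe sets. Per the labels' protocols, biotin-labelled cRNA had been made from 1 µg of total RNA. The software behind the probe summaries is unstated in the sources used. Trimming 2% of probe sets at each end gave a mean of 500.002 on every array, a common scaling found from the values. The 64 control probe sets were dropped, deposited intensities under 1 were set to 1, and log2 was taken. Array medians spanned 0.147 log2 units, and the arrays were quantile normalized. A single gene symbol was annotated for 34945 of 45037 probe sets, and the one with the highest mean over 6 arrays stood for each of 18193 genes. Heterozygous minus wild-type differences were fitted over all genes with limma 3.58.1 (lmFit, eBayes, two-sided) in R 4.3.3, adjusted after Benjamini and Hochberg and called at 0.05. Normalized values and chosen probe sets were kept when an array was left out. An SE is limma's moderated standard error, and an SD is over 3 arrays. The number of arrays limits the precision.

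The genes and lists were chosen with earlier results of these data known. Values in every array are given for the genes with the largest differences, for those whose genotypes did not overlap, and for the brightest and dimmest. From the other ciliary lists the 2 genes of smallest p are named, with Foxj1, and from the marker lists Ovgp1 and, for 5 lists, the gene of smallest p; the rule also allowed further genes of small p and the brightest 2, which are not given here. Other genes were named after their values were seen. Alternatives were the deposited scaling, log2 of the intensity plus 16, other probe set and variance rules, array weights, the ratio of 3' to 5' control signal as a covariate or classes, the replicate block and leaving out each array. Promoters came from RefSeq (GRCm38.p6), matched by symbol. The files name no genome build. The scripts were tested on simulated data.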

Additional observations from a re-analysis of the deposited data

How the results depend on the processing

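In limma fits, none of the 41 genes passed the threshold under any of 16 alternatives (lowest adjusted p 0.270, with array weights, where 8 of 41 were at an unadjusted p under 0.05, beside 2539 of all 18193 genes). Their median change was -0.21 to -0.05 under these, both ends reached by leaving out 1 array. The number of all genes passing, 3 in the fit reported, was 7 with array weights and 1 both with dim genes left out and with trend and robust. It was 0 with the Actb ratio as covariate or as classes, with cross-hybridizing probe sets removed and with the replicate block (1114, 1171, 1129 and 976 genes at an unadjusted p under 0.05), and 0 to 0 when 1 array was left out (843 to 1907 genes). The causes were not tested. The deviations of same-numbered heterozygous and wild-type arrays from their group means correlated at -0.10, -0.03 and -0.08 across genes for replicates 1, 2 and 3. The labels give only a number, and these correlations cannot decide whether same-numbered arrays were handled together. With the replicate block the count of the 41 genes passing stayed at 0 and their median at -0.13. Of 655 values of single genes under the alternatives, 59 had the other sign, in 21 genes, none of them past the threshold. Spag6, Spag16, Meig1, Rsph3a, Tubb4b, Ift172, Spag17, Ccdc40, Tekt4, Rsph9 and Dnai1 each turned under 3 or more alternatives. With the mean of all its probe sets Dnah1 stood at 0.25, Dnah2 at 0.65, Ccdc39 at 0.26 and Cfap52 at 0.19. No background level was used here, so a dim signal cannot be told from none.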
